A study of Mus musculus with 231 samples.

Results

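miR-223 is the best known microRNA (miRNA) of the myeloid blood lineage, and both mature strands of its precursor were followed here: miR-223-3p, the abundant strand, and miR-223-5p, the minor one. They were taken as the rows named mmu-miR-223-3p and mmu-miR-223-5p, which are 2 of 1863 mature miRNAs in the raw counts of the training cohort, 2 of 1895 in its deposited CPM (counts scaled to a common library size) and 2 of 1817 in the deposited CPM of the validation cohort. The libraries were small RNA libraries from peripheral blood mononuclear cells (PBMC) drawn repeatedly from C57BL/6 mice in which the leukemia fusion gene Cbfb-MYH11 (CM) can be switched on, and from littermates (Ctrl). The training cohort held 7 CM mice with 53 libraries and 7 Ctrl mice with 76 libraries, taken before induction (month 0) and monthly up to month 10 or until a mouse was moribund. The validation cohort held 10 CM mice with 60 libraries and 6 Ctrl mice with 42 libraries by the sample labels, whereas GEO's design text counts 9 CM mice and 7 Ctrl mice in this cohort. The labels were followed.

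CM mice carry 1 knock-in allele of the fusion (Cbfb 56M/+) together with Mx1-Cre, a Cre recombinase under an interferon-responsive promoter that is active in blood-forming cells and also in other tissues. Mice of 6 to 8 weeks of age received poly(I:C), which induces interferon and with it the Cre, at 14 mg per kg in 7 doses given every other day. Ctrl littermates of the same age received the same injections, so exposure to poly(I:C) was shared by both groups. The genotype code was CHW in all CM mice. Among training Ctrl mice it was CW in 4, HW in 2 and WT in 1, and among validation Ctrl mice CW in 3, HW in 2 and WT in 1. These codes are not explained in the labels, which say that Ctrl mice lacked the transgene, whereas the study's methods allow Ctrl mice that carried the allele without Cre. Of the training mice 4 CM and 2 Ctrl were female, and of the validation mice 5 CM and 3 Ctrl. A time labelled T6p5, present in 2 CM mice, was read as month 6.5.

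In mouse and human, miR-223 is made in granulocytes, monocytes and their precursors, where myeloid transcription factors drive its own promoter, and platelets also carry it. It restrains expansion and activation of the granulocyte lineage, in part by repressing the transcription factor Mef2c. A miRNA recognises its target messenger RNAs mainly through the seed, the stretch of bases near its 5′ end, so the 2 strands of a precursor have different targets. Cbfb-MYH11 encodes the fusion of inv(16) acute myeloid leukemia and disturbs the core-binding factor that blood progenitors need to mature.

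The mature sequences from RefSeq (GRCm38.p6) are shown because the members are told apart by these letters alone, with the seed (bases 2 to 8) in capitals.
mmu-miR-223-3p: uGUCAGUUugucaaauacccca
mmu-miR-223-5p: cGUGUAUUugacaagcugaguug
miR-223-3p has 22 bases and lies at chrX:96242884-96242905 on the plus strand, and miR-223-5p has 23 bases and lies at chrX:96242842-96242864. Neither seed was shared by any other of the 1679 mature mouse miRNAs of the same table, and 0 other miRNAs lay within 2 bases of either sequence. The arms pair with each other in the hairpin: the longest run of complementary bases is 11 long and joins bases 4 to 14 of miR-223-5p with bases 8 to 18 of miR-223-3p. The 110-base hairpin, Mir223, runs from chrX:96242817-96242926 and lies inside F630028O10Rik, a long noncoding RNA gene (chrX:96239926-96243642). In the mm9 annotation, the build that the study's methods name for alignment, the hairpin (chrX:93438156-93438265) falls within the last exon of that gene.

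The PBMC labels were set against miRNA markers. The pan-hematopoietic pair miR-142a-3p and miR-142a-5p summed to 33005 to 194350 CPM, with a median of 63480 CPM over the training libraries. The other myeloid miRNAs of a fixed list of 7 (miR-21a-5p, miR-22-3p, miR-23a-3p, miR-24-3p, miR-27a-3p, miR-146a-5p and miR-155-5p) summed to 103679 to 248488 CPM, and a mature lymphocyte list of 4 summed to 7703 to 92343 CPM. Erythroid miRNAs reached 622224 CPM in 1 library, and PBMC preparations therefore held erythroid RNA too. Training libraries held 1792809 to 7958411 counts with a median of 4437464. In such bulk samples fewer cells of a type and less RNA per cell cannot be told apart.

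miR-223-3p was an abundant miRNA in every training library and miR-223-5p a minor one. CPM values here are from the raw counts, with edgeR's TMM scaling factors, and they are levels. Over the 53 CM and 76 Ctrl libraries miR-223-3p ranged from 1368 to 39421 CPM with a median of 5498, made up 0.166% to 4.30% of all counts, and ranked between 7 and 64 among all miRNAs. miR-223-5p ranged from 61.6 to 569 CPM with a median of 180 and ranked between 93 and 187. The ratio of 3p to 5p ran from 9.71 to 69.3 with a median of 32.1. Of the other myeloid miRNAs, miR-21a-5p held more CPM than miR-223-3p in every training library and miR-22-3p in 69 of them. Mature miRNAs are of nearly one length, but adapters join some sequences more readily than others, so levels of different miRNAs compare only roughly.

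Group medians of miR-223-3p were highest in groups of months 0 and 2 and lowest in those of months 10 and 6.5. The order between did not follow time, with CM at month 5 (8230 CPM) above CM at month 1 (5819 CPM). Single libraries did not follow it either, since the lowest of all was Ctrl mouse 3349 at month 2 (1368 CPM). By median, the order of the groups for miR-223-3p opened with Ctrl at month 0 (10992 CPM), CM at month 2 (10133 CPM) and CM at month 0 (8938 CPM). It closed with Ctrl at month 10 (3525 CPM) and the 2 CM libraries of month 6.5 (1954 and 2265 CPM). Each group in that order overlapped its neighbour in range, except that the month 6.5 libraries lay below every Ctrl library of month 10, the lowest of which held 2730 CPM. For miR-223-5p the highest median was in CM at month 2 (237 CPM) and the lowest again at month 6.5 (61.6 and 79.5 CPM), which lay below the 3 CM libraries of month 7 (87.1, 144 and 171 CPM). The other pair of neighbours without overlap for miR-223-5p was the single CM library of month 10 (189 CPM) above the 2 of month 8 (174 and 175 CPM).

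**Figure D1:**
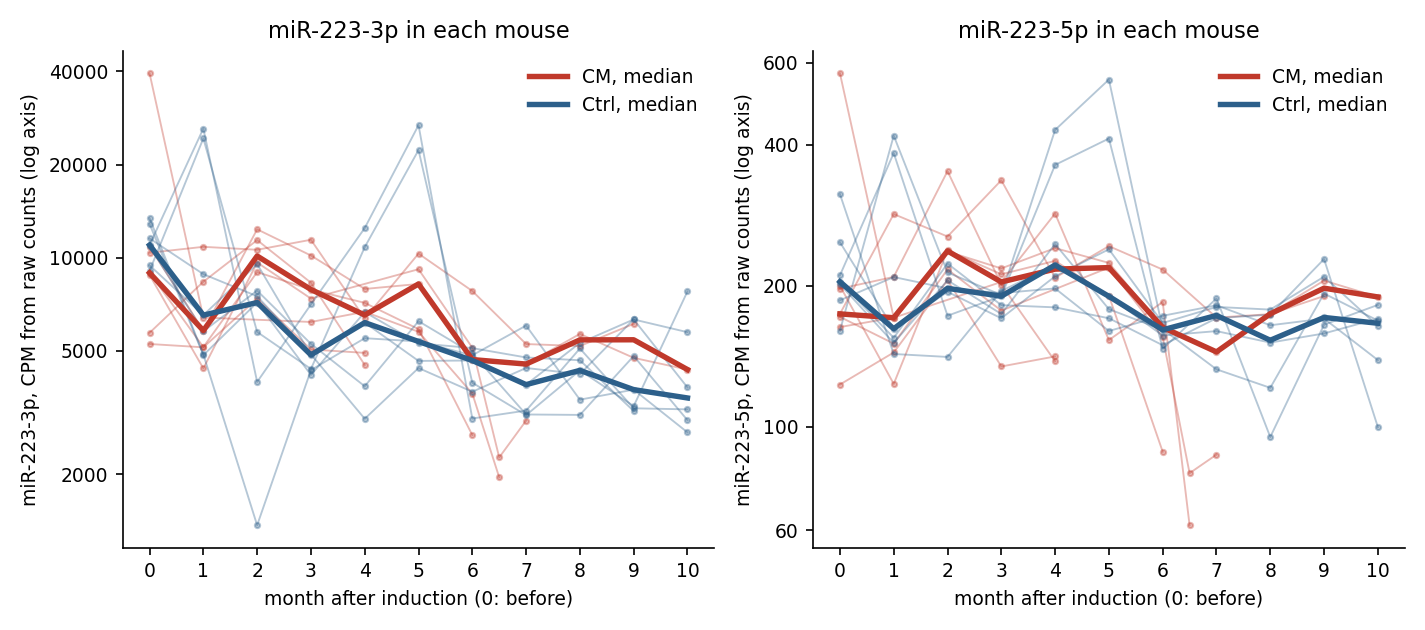
Level of miR-223-3p (left) and miR-223-5p (right) in CPM from raw counts on a log axis against month after induction, with a thin line for each of the 7 CM (red) and 7 Ctrl (blue) training mice and a thick line for the median of each group. miR-223-3p falls from medians of 8938 (CM) and 10992 CPM (Ctrl) at month 0, and 5 libraries of 3 mice stand above 20000 CPM.

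Before induction no difference between the groups passed, and the direction of the fitted difference of miR-223-3p rested on 1 mouse. At month 0 miR-223-3p ranged from 5267 to 39421 CPM in the 7 CM mice (median 8938) and from 9070 to 13432 CPM in the 7 Ctrl mice (median 10992). Of the CM mice, 4 lay below all Ctrl mice and 1, mouse 3334, lay above all. The log2 difference between CM and Ctrl was 0.18 ± 0.39 (SE) for miR-223-3p and 0.06 ± 0.30 for miR-223-5p, with adjusted p of 0.868 and 0.958 (edgeR quasi-likelihood F test with Benjamini-Hochberg adjustment over all miRNAs tested). Without mouse 3334 the log2 difference of miR-223-3p was -0.47 (adjusted p = 0.248). In level, on the log2(CPM + 1) scale, it was -0.14 with all mice (exact permutation, adjusted p = 0.959), -0.47 without mouse 3334 (adjusted p = 0.0641) and -0.50 without CM mouse 3334 and Ctrl mouse 3335 (adjusted p = 0.0433). At that month 0.209% of the 478 miRNAs tested were called at an adjusted p under 0.05. In the sample titles a running number counts on through the months of each other training mouse. For mice 3334 and 3335 these runs cross between months 5 and 6. Whether both labels keep to the same animal across that step was not tested, so results without both mice are also given. Changes within either mouse across that step carry this doubt.

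At month 1 neither member passed. miR-223-3p ranged from 4392 to 10850 CPM in CM mice (median 5819) and from 4847 to 26149 CPM in Ctrl mice (median 6526), with a log2 difference of -0.84 ± 0.42 (adjusted p = 0.16), whereas 27.5% of 472 miRNAs were called. Mice 3342 and 3346 held the 2 highest Ctrl values, 26149 and 24313 CPM. Without mouse 3342 the log2 difference was -0.47 and without mouse 3346 it was -0.52, and over all omissions of a mouse it ran from -1.02 to -0.47.

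At month 2 CM mice held more of both strands than most Ctrl mice, without passing across all miRNAs. miR-223-3p ranged from 7377 to 12358 CPM in 6 CM mice (median 10133) and from 1368 to 9544 CPM in 7 Ctrl mice (median 7168), and 4 CM mice lay above every Ctrl mouse. miR-223-5p ranged from 206 to 352 CPM in CM (median 237) and from 141 to 223 CPM in Ctrl (median 198), and again 4 CM mice lay above every Ctrl mouse. The log2 differences were 0.70 ± 0.32 for miR-223-3p (adjusted p = 0.155) and 0.37 ± 0.14 for miR-223-5p (adjusted p = 0.0977), at a month when 13.5% of 481 miRNAs were called. The lowest Ctrl value came from mouse 3349, whose library held the fewest counts of the cohort (1792809) and the lowest 3p to 5p ratio (9.71).

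At month 3 miR-223-3p was higher in CM and miR-223-5p did not pass. miR-223-3p ranged from 5055 to 11434 CPM in the 7 CM mice (median 7897) and from 4184 to 7069 CPM in the 7 Ctrl mice (median 4856). Of the CM mice 5 lay above every Ctrl mouse, and the remaining CM mice, 3357 (5055 CPM) and 3334 (6204 CPM), lay within the Ctrl range. The log2 difference was 0.74 ± 0.19 (adjusted p = 0.0122), and it stayed between 0.64 and 0.87 with adjusted p of 0.00473 to 0.0319 when each mouse was left out in turn. An exact two-sided permutation test over mice of the mean log2(CPM + 1) gave a difference of 0.67 (p = 0.00408, adjusted p = 0.0408 over 10 months), and 10 of the 14 omissions of a mouse took its adjusted p past 0.05, up to 0.0874. miR-223-5p ranged from 134.5 to 336 CPM in CM and from 170 to 195 CPM in Ctrl, with a log2 difference of 0.25 ± 0.17 (adjusted p = 0.293). Of 455 miRNAs tested, 22.0% were called.

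The month 3 libraries of the groups hardly shared the number that follows the letter G in the sample titles, which the labels do not explain. CM libraries carried G numbers 3, 4 and 5 and Ctrl libraries 1, 2 and 3. In the 1 G number they shared, the CM mouse 3334 held 6204 CPM and the Ctrl mouse 3339 held 5272 CPM, a log2 difference of 0.23. With the G number as a covariate the log2 difference of miR-223-3p was 0.45 with an adjusted p of 0.687 in the same edgeR test. G number and group at month 3 can therefore hardly be told apart.

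At months 4 to 6 no difference between the groups passed for either member. miR-223-3p differed by -0.09 ± 0.30, -0.39 ± 0.49 and 0.12 ± 0.24 at months 4, 5 and 6 (log2, SE), and miR-223-5p by -0.30 ± 0.26, -0.35 ± 0.31 and -0.02 ± 0.20. At month 6 the CM mice held 3643 (3334), 5123 (3336), 2674 (3341), 4690 (3368) and 7810 CPM (3370) of miR-223-3p, on both sides of the Ctrl range of 3026 to 5108 CPM. At month 5 the fitted difference ran against the medians, which were 8230 CPM in CM and 5366 CPM in Ctrl, where mice 3342 and 3346 held 26809 and 22272 CPM. Without mouse 3342 it was -0.0039, and without mouse 3346 it was -0.11. Over these months and both strands the adjusted p ran from 0.534 to 0.968, and 0.837%, 0.0% and 0.0% of 478, 505 and 444 miRNAs were called. At month 5, with 0 calls by edgeR, 21.6% of the miRNAs had an unadjusted p under 0.05 and DESeq2 called 18. At month 6, again with 0 calls by edgeR, 31 miRNAs had an unadjusted p under 0.05 and DESeq2 called 0. At months 7 to 9, with 3, 2 and 2 CM mice, exact permutation tests over mice gave differences of miR-223-3p of 0.06, 0.35 and 0.34 on the log2 scale, with adjusted p of 0.463 or more. For miR-223-5p at month 7 the difference was -0.38 (exact permutation p = 0.0833, adjusted p = 0.417). So few mice allow no p under 0.00833 at month 7 or 0.0278 at months 8 and 9, so these tests could hardly pass after adjustment over 10 months.

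**Figure D2:**
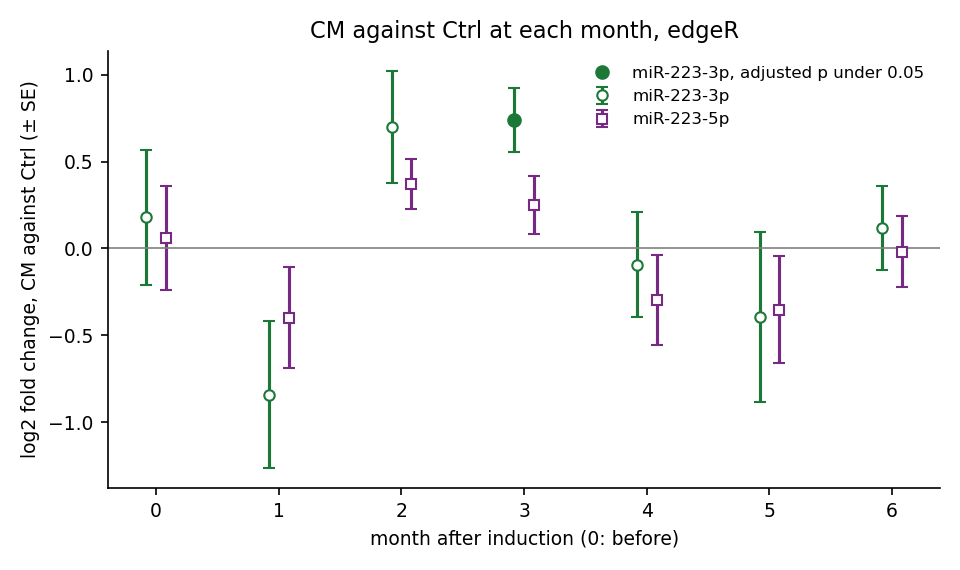
Log2 difference between CM and Ctrl at months 0 to 6 with its standard error (bars) for miR-223-3p and miR-223-5p from edgeR, with filled points at an adjusted p under 0.05. The only filled point is miR-223-3p at month 3 (0.74 ± 0.19).

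Each mouse was drawn before induction, so the change within a mouse could be compared between groups. At month 2, miR-223-3p had changed by 0.31 ± 0.38 (SD, n = 6) in CM mice and by -1.05 ± 1.08 (SD, n = 7) in Ctrl mice on the log2(CPM + 1) scale. The change was above 0 in 6 of 6 CM mice (0.01 to 0.99) and in 1 of 7 Ctrl mice (-3.29 to 0.01), and 5 CM mice lay above every Ctrl mouse. The difference of 1.36 had p = 0.00175 by an exact two-sided permutation test over mice and an adjusted p of 0.0105 over 6 months. Leaving out each mouse in turn kept it between 0.98 and 1.53, the lower value without Ctrl mouse 3349, with adjusted p of 0.0455 or less. miR-223-5p had changed by 0.54 ± 0.22 (SD, n = 6) in CM mice and by -0.16 ± 0.51 (SD, n = 7) in Ctrl mice, a difference of 0.70 (exact permutation p = 0.00466, adjusted p = 0.028). For that strand 5 of 13 omissions of a mouse took the adjusted p past 0.05, up to 0.0909, and the differences then ran from 0.54 to 0.80. CM mouse 3334, whose month 0 level was the highest of all libraries, had no month 2 library and does not enter this comparison. The 6 CM mice that do enter it started lower than Ctrl, at 5267 to 10865 CPM of miR-223-3p against 9070 to 13432 CPM and by 0.47 on the log2 scale. The difference in change is therefore made up of this gap at month 0 and of the level difference of 0.89 at month 2, which on its own did not pass (adjusted p = 0.0962, exact permutation). Only 2 G numbers held both groups at month 2, G number 3 with 1 CM and 1 Ctrl library and G number 7 with 1 CM and 2 Ctrl libraries. In both the CM level of miR-223-3p was higher, by 0.26 and 0.79 on the log2 scale. The remaining libraries of month 2 shared no G number with the other group, so G number and group can hardly be told apart here either.

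At the other months the change from month 0 did not differ beyond the spread between mice. At month 3 it was -0.37 ± 1.05 (SD, n = 7) in CM and -1.17 ± 0.36 (SD, n = 7) in Ctrl for miR-223-3p, a difference of 0.80 with an adjusted p of 0.241 by exact permutation. That value rests on mouse 3334, which had fallen by 2.67: without CM mouse 3334 and Ctrl mouse 3335 the difference was 1.22 with an adjusted p of 0.00649 in the same exact permutation test. At months 4 to 6 the differences lay between -0.28 and 0.09.

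Averaged over time the groups did not differ beyond the spread between mice. The mean of miR-223-3p over months 1 to 6 was 12.74 ± 0.29 (SD, n = 7) in CM and 12.57 ± 0.46 (SD, n = 7) in Ctrl on the log2(CPM + 1) scale, a difference of 0.17 with an adjusted p of 0.674 by exact permutation over mice. The slope over months 0 to 6 was below 0 in every mouse, at -0.13 ± 0.13 per month in CM and -0.15 ± 0.07 per month in Ctrl. Means and slopes took the months at hand. CM mice 3338 and 3357 ended at month 4, mouse 3334 lacked month 2 and mouse 3336 lacked month 4, while Ctrl mice had every month. The groups therefore did not cover the same months. For miR-223-5p slopes were above 0 in 4 of 7 CM mice and 1 of 7 Ctrl mice, and the group difference of -0.03 per month had an adjusted p of 0.674 in the exact permutation test.

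miR-223-3p was lower in Ctrl mice at month 6 than before injection. At month 6 the 7 Ctrl mice held 3026 to 5108 CPM (median 4658), against 9070 to 13432 CPM at month 0, so that the ranges did not overlap. The log2 difference was -1.36 ± 0.15 (adjusted p = 3.44e-05), and with the mouse as a block it was -1.37 with an adjusted p of 0.00101. Every Ctrl mouse was lower than at its own month 0 at months 3, 6, 7, 8, 9 and 10, as were 6 of 7 at month 2 and 5 of 7 at months 1, 4 and 5. Mice 3342 and 3346 were the exceptions at months 1, 4 and 5, higher by 1.25 and 1.42 at month 1, 0.18 and 0.25 at month 4 and 1.29 and 1.30 at month 5 on the log2 scale. miR-223-5p fell less, by 0.43 ± 0.14 on the log2 scale (adjusted p = 0.0427), with 6 of 7 mice lower. That call was lost with the mouse as a block (-0.41, adjusted p = 0.105) and in 6 of the 7 fits that left out a mouse (-0.52 to -0.29). Of 474 miRNAs tested, 20.5% were called, and 67 in place of 97 with the block. The libraries of these months shared some G numbers and not others. The G number was not fitted in this comparison, and its part was not tested.

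In CM mice the last library of each mouse was set against its month 0. The last libraries held miR-223-3p at 4506 (mouse 3338, month 4), 4930 (3357, month 4), 2674 (3341, month 6), 1954 (3334, month 6.5), 2979 (3336, month 7), 6117 (3370, month 9) and 4354 CPM (3368, month 10). All 7 lay below the mouse's own month 0, with log2 differences from -0.10 in mouse 3357 to -4.33 in mouse 3334. The last library of mouse 3334 comes after the step where its running number crosses with that of mouse 3335, so its pairing is in doubt. The log2 difference was -1.60 ± 0.42 (adjusted p = 0.00934). With the mouse as a block it was -1.24 and the call was lost (adjusted p = 0.0595). The fold rested in part on mouse 3334: without mouse 3334 it was -0.89 (adjusted p = 0.0157). miR-223-5p was at -0.74 ± 0.35 (adjusted p = 0.102) with 4 of 7 mice lower, and without mouse 3334 it was at -0.23 (adjusted p = 0.456). In this comparison 39.0% of 446 miRNAs were called, so a call was common. Last and month 0 libraries shared only G numbers 3 and 6. The G number was not fitted here, and its part in the fall was not tested.

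**Figure D3:**
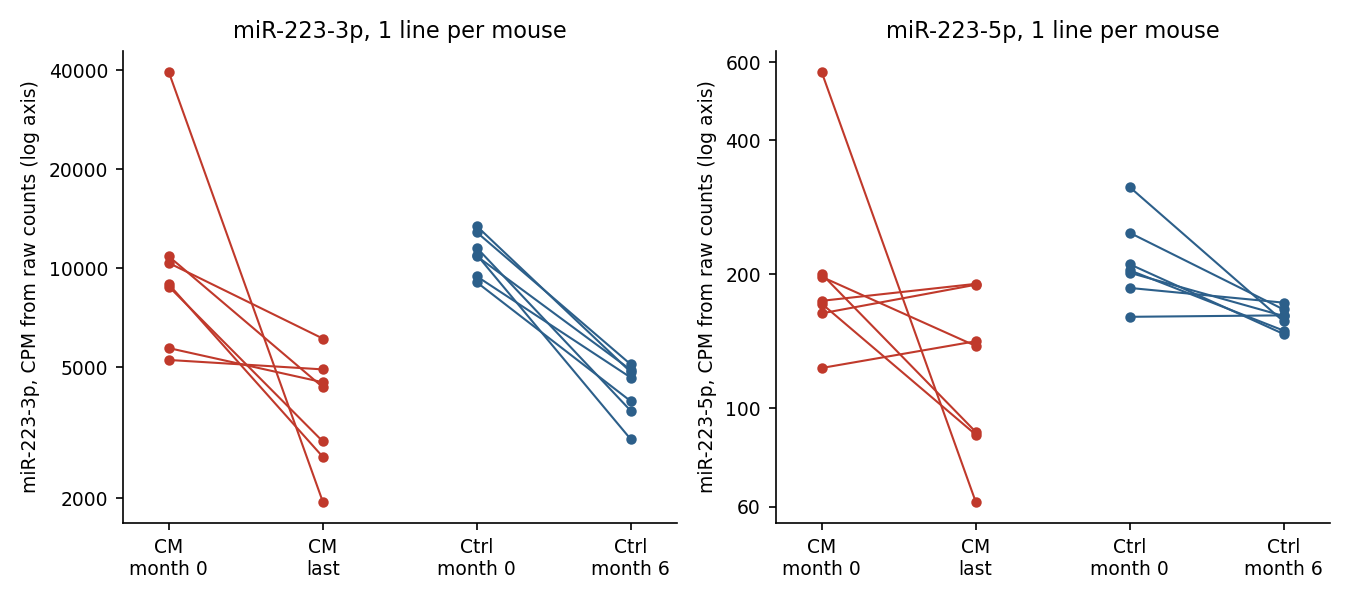
Level of miR-223-3p (left) and miR-223-5p (right) in CPM on a log axis at month 0 and in the last library of each CM mouse, joined by a line per mouse, beside the 7 Ctrl mice at months 0 and 6. For miR-223-3p every line falls, from 5267 to 39421 CPM to 1954 to 6117 CPM in CM.

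Set against Ctrl libraries of the same month, several of the last CM libraries were low in both strands. For this, month 6.5 was set against Ctrl month 6. miR-223-5p lay below all Ctrl mice of that month in 5 of 7 CM mice, at 61.6 (3334), 87.1 (3336), 137.9 (3338), 88.4 (3341) and 141 CPM (3357), where the lowest Ctrl values were 147, 132.6, 180, 147 and 180 CPM. miR-223-3p lay below all Ctrl mice in 3 of 7, at 1954 (3334), 2979 (3336) and 2674 CPM (3341), where the lowest Ctrl values were 3026, 3103 and 3026 CPM. Mice 3370 and 3368, which gave the latest CM libraries, were above the lowest Ctrl mice in both strands, with 190 and 189 CPM of miR-223-5p at months 9 and 10. The median log2 difference from the Ctrl mean of the month was -0.84 for miR-223-5p and -0.41 for miR-223-3p. The ratio of 3p to 5p lay above the Ctrl mean in 6 of 7 CM mice (median log2 difference 0.40). These are values only: last libraries come from different months and were not tested against Ctrl.

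The ratio of 3p to 5p does not depend on library scaling, since both strands are read in the same library. At month 3 it ran from 30.4 to 46.7 in CM mice (median 37.6) and from 22.2 to 37.0 in Ctrl mice (median 25.3), and 5 of 7 CM mice lay above every Ctrl mouse. The log2 difference of 0.52 had p = 0.00408 and an adjusted p of 0.0326 over 8 tests (exact two-sided permutation over mice), and 7 of 14 omissions of a mouse took the adjusted p past 0.05, up to 0.0513. In the 1 G number shared at month 3 the ratios of CM and Ctrl were close, at 30.4 and 30.9. At the other months from 0 to 6 the adjusted p was 0.293 or more. The mean over months 1 to 6 differed by 0.24 (p = 0.021, adjusted p = 0.0839, exact permutation), with 5 of 7 CM mice above every Ctrl mouse. As for the means above, some CM mice lacked some of these months, while Ctrl mice had them all. Within G numbers, with libraries of months 1 to 6 pooled over months and mice, the ratio was higher in CM in 6 of 7. Matched by month, it was higher in CM in 1 of 3 shared G numbers at month 1 and 1 of 2 at month 2. It was higher in CM in 0 of 1 at month 3, 3 of 4 at month 5 and 0 of 1 at month 6. The pooled count is therefore not borne out month by month. The shared G number of month 6 includes CM mouse 3334, whose G number there breaks the run of serial numbers in the titles. At month 6 the ratio was lower than at month 0 in 7 of 7 Ctrl mice and in 5 of 5 CM mice, a change that was not tested.

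**Figure D4:**
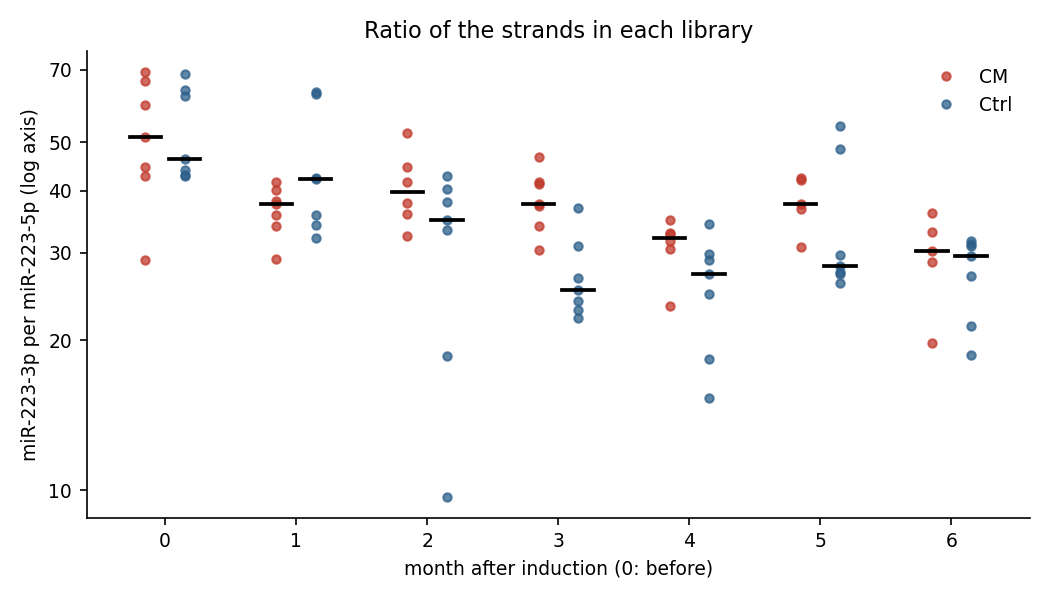
Ratio of miR-223-3p to miR-223-5p on a log axis by month, with a point for each CM (red) and Ctrl (blue) library and a line for each median. At month 3 CM mice (30.4 to 46.7) stand mostly above Ctrl mice (22.2 to 37.0).

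A few libraries stood far above the rest. Of the training libraries, 5 from 3 male mice held 20000 CPM or more of miR-223-3p, and the next highest held 13432 CPM. They were CM mouse 3334 at month 0 (39421 CPM), Ctrl mouse 3342 at months 1 and 5 (26149 and 26809 CPM) and Ctrl mouse 3346 at months 1 and 5 (24313 and 22272 CPM). miR-223-5p was high in the same libraries, at 384 to 569 CPM, and the deposited CPM was high too, at 25581 CPM of miR-223-3p in mouse 3334. At month 4, mice 3342 and 3346 held 12474 and 10822 CPM. Markers of other cells moved with some of these libraries: the summed lymphocyte list stood at 29799 CPM in mouse 3334 at month 0, where the other 6 CM mice held 50279 to 69761 CPM, and at 33773 and 47448 CPM in mice 3342 and 3346 at month 1, where the other 5 Ctrl mice held 54667 to 74442 CPM. At month 5 both lay within the range of the others. The progenitor list stood above all others of its group and month in mouse 3334 at month 0 (17788 CPM, others 6467 to 13528), in mouse 3346 at month 1 (16303 CPM, others 10210 to 12895) and in mouse 3342 at month 5 (23986 CPM, others 13280 to 17661). The other myeloid list in mouse 3334 at month 0, at 147432 CPM, stood below the others (167458 to 201328 CPM). In mouse 3342 it stood above the others at month 1 (221922 CPM, others 182478 to 214817). At month 5 it was just above them in that mouse (243356 CPM, others 194992 to 243278). In mouse 3346 it lay within the range of the others at both months (205059 and 233172 CPM). The erythroid list stood below all others in mouse 3334 at month 0 (40512 CPM) and mouse 3342 at month 1 (28295 CPM). So did the pan-hematopoietic pair (63340 and 74297 CPM), and in the other high libraries both lay within the range. The platelet list, nearly all miR-126a, stood above the others in mouse 3346 at month 1 (201 CPM) and below them in mouse 3342 at month 5 (157 CPM). The part of these cells in the high values was not tested.

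Some other miRNAs followed miR-223-3p across libraries. Among 329 miRNAs with a mean of 10 CPM or more, Spearman's rho with miR-223-3p over the 53 CM and 76 Ctrl libraries was highest for miR-450b-5p (0.70), miR-450b-3p (0.68), miR-450a-1-3p (0.67), miR-148a-3p (0.65) and miR-574-3p (0.64). Its own other strand, miR-223-5p, stood at 0.66 (0.79 in CM and 0.54 in Ctrl libraries). The order did not hold within CM libraries, where the first 4 of those 5 stood at 0.56, 0.48, 0.48 and 0.50 and miR-574-3p at 0.69, while in Ctrl libraries the 5 lay between 0.72 and 0.77. The lowest were miR-186-3p (-0.62), let-7b-5p (-0.58) and miR-20a-5p (-0.57). Without the 5 high libraries, rho was 0.67 for miR-450b-5p and 0.62 for miR-223-5p. These are descriptions: libraries of 1 mouse are repeated draws, all share a scaling, and no p is given. For miR-20a-5p Pearson's r was -0.15, far from its rho.

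Mir223 lies on the X chromosome and the sexes were unevenly spread over the groups, so females and males were compared within each. The mean over all months of a mouse was lower in females by 0.21 in CM (4 females, 3 males) and by 0.27 in Ctrl (2 females, 5 males) for miR-223-3p on the log2(CPM + 1) scale. Exact two-sided permutation p were 0.2 and 0.19, with adjusted p of 0.267 over 4 tests. For miR-223-5p females were lower by 0.26 and 0.11 (exact permutation p = 0.171 and 0.333). The smallest p that these numbers of mice allow are 0.0286 in CM and 0.0476 in Ctrl. CM females were followed to months 4 to 7 and CM males to months 6.5 to 10, so in CM sex is mixed with the months sampled. The CM male mean also holds the high month 0 library of mouse 3334.

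Set against the other myeloid miRNAs, the month 3 difference of miR-223-3p had no counterpart of the same sign that passed the test. Of the 7, all tested, 0 were higher and 2 were lower in CM, miR-146a-5p, which restrains inflammatory signalling, at -0.42 ± 0.14 (adjusted p = 0.0414) and miR-22-3p at -0.41 ± 0.14 (adjusted p = 0.0478). That count stands beside 22.0% called among all miRNAs at this month. The median log2 difference of the list was -0.13, against 0.07 over all miRNAs tested, and its sum ran from 136488 to 222893 CPM in CM and from 181793 to 224223 CPM in Ctrl. At months 1 and 2, 0 of the 7 passed the test in either direction.

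miRNAs that mark other cell types differed between the groups at the same month. Erythroid miRNAs were higher in CM at month 3 in 5 of 6, where 22.0% of all miRNAs were called, among them miR-144-3p at 1.24 ± 0.38 and miR-144-5p at 1.14 ± 0.24, and their sum was 47984 to 97066 CPM in CM against 37380 to 62728 CPM in Ctrl. The lymphocyte marker miR-150-5p was lower, at -0.70 ± 0.20, the only call of 4, and the list's sum was 24147 to 55032 CPM in CM against 53089 to 92081 CPM in Ctrl. With the G number as a covariate, 0 of these calls and of the other marker calls of the month were left, and miR-142a-3p was then called lower. Of the platelet list of 4, 2 were tested and both were higher without that covariate, miR-126a-3p at 2.44 ± 0.50 and miR-126a-5p at 2.72 ± 0.54. The sum of this list was 204 to 2407 CPM in CM and 135.6 to 183 CPM in Ctrl. It is nearly all miR-126a, which stem and progenitor cells and the leukemia cells of inv(16) also make, while miR-199a-3p and miR-199a-5p had means of 0.098 and 8.04 CPM, so it is not read as a platelet level. Of 8 progenitor miRNAs and the pan-hematopoietic pair, 0 passed. The part of these cell types in the miR-223-3p difference was not tested.

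At month 2, where the change from month 0 differed between groups, the same lists gave 3 higher of 6 erythroid miRNAs, 2 higher of 3 miRNAs tested of the platelet list (both miR-126a), 2 higher of 8 progenitor miRNAs and 0 calls among lymphocyte miRNAs, where 13.5% of all miRNAs were called. miR-142a-3p, made in all blood cells, was lower in CM at -0.89 ± 0.16. With the G number as a covariate 0 of the miRNAs tested were called at month 2, these included. The sum of the platelet list, nearly all miR-126a, was 265 to 743 CPM in CM and 37.8 to 180 CPM in Ctrl. Their part in the miR-223 difference was not tested.

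The same lists were counted where miR-223-3p fell over time. In Ctrl mice at month 6 against month 0, where 20.5% of all miRNAs were called, 0 of the 7 other myeloid miRNAs passed in either direction, and their median log2 difference was 0.03, as over all miRNAs tested (0.03). Of the lymphocyte list 1 of 4 fell, miR-342-3p at -1.08 ± 0.21, while 2 of 6 erythroid miRNAs rose, miR-486b-5p at 1.30 ± 0.39 and miR-144-3p at 1.22 ± 0.41, and 4 of 8 progenitor miRNAs rose, miR-99b-5p at 0.84 ± 0.21 the most. The platelet and pan-hematopoietic lists had 0 calls. In last CM libraries against month 0, where 39.0% were called, 1 of 7 other myeloid miRNAs rose, miR-21a-5p at 0.53 ± 0.17, and 3 of 4 lymphocyte miRNAs fell, from -0.97 ± 0.34 for miR-342-3p to -0.83 ± 0.25 for miR-342-5p. In that comparison 3 of 6 erythroid miRNAs rose and miR-451a fell, and both tested miRNAs of the platelet list rose, miR-126a-3p at 3.95 ± 0.55 and miR-126a-5p at 4.09 ± 0.59, with the same limit as a platelet marker. Of 8 progenitor miRNAs 1 rose, miR-196b-5p at 3.31 ± 0.89, and 0 of the pan-hematopoietic pair passed. The summed lymphocyte level was 9572 to 58529 CPM in last CM libraries and 29799 to 69761 CPM at month 0. The part of a shift in cell types in the fall of miR-223-3p was not tested.

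In the validation cohort miR-223 could be measured at the sampling point labelled 5 and not at the others. There the 6 CM libraries held 5928 to 22971 whole reads of miR-223-3p and the 6 Ctrl libraries 17000 to 32343. In deposited CPM, which in this cohort is on a larger scale, miR-223-3p ran from 21752 to 65009 in CM (median 51913) and from 36592 to 84603 in Ctrl (median 51685), and miR-223-5p from 630 to 1971 (median 1590) and from 1291 to 2226 (median 1609). The ranges overlapped for both strands, with the 2 lowest CM mice below every Ctrl mouse in each. The log2 differences were -0.33 ± 0.31 for miR-223-3p and -0.40 ± 0.33 for miR-223-5p (limma on log2(CPM + 1), adjusted p = 0.941 for both), and exact permutation tests over mice gave p = 0.314 and 0.277. Without 1 mouse in turn the values ran from -0.45 to -0.13 (the last without CM mouse 2718) and from -0.53 to -0.20 (without CM mouse 2684). Scaled to the reads other than miR-5099, the median of miR-223-3p per 1000000 such reads was 3545 in CM and 4458 in Ctrl and 4 of 6 CM mice lay below every Ctrl mouse, with a log2 difference of -0.40 (exact permutation p = 0.184). At this point 0.0% of 930 miRNAs were called by limma, 0 by edgeR on recovered reads, and 54 had an unadjusted p under 0.05. The ratio of 3p to 5p ran from 27.6 to 47.5 in CM and from 27.6 to 41.8 in Ctrl (exact permutation p = 0.597).

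At the other validation points, 90 libraries held 0 to 4 reads of miR-223-3p, 51 reads in all, and only 1 library held more than 3. miR-223-5p had 0 to 2 reads, 17 in all. These libraries held 186 to 6903 reads each apart from miR-5099, the name that takes most reads there, which was chosen after its values were seen. A difference between groups was not detectable at this depth, and no fold is given.

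**Figure D5:**
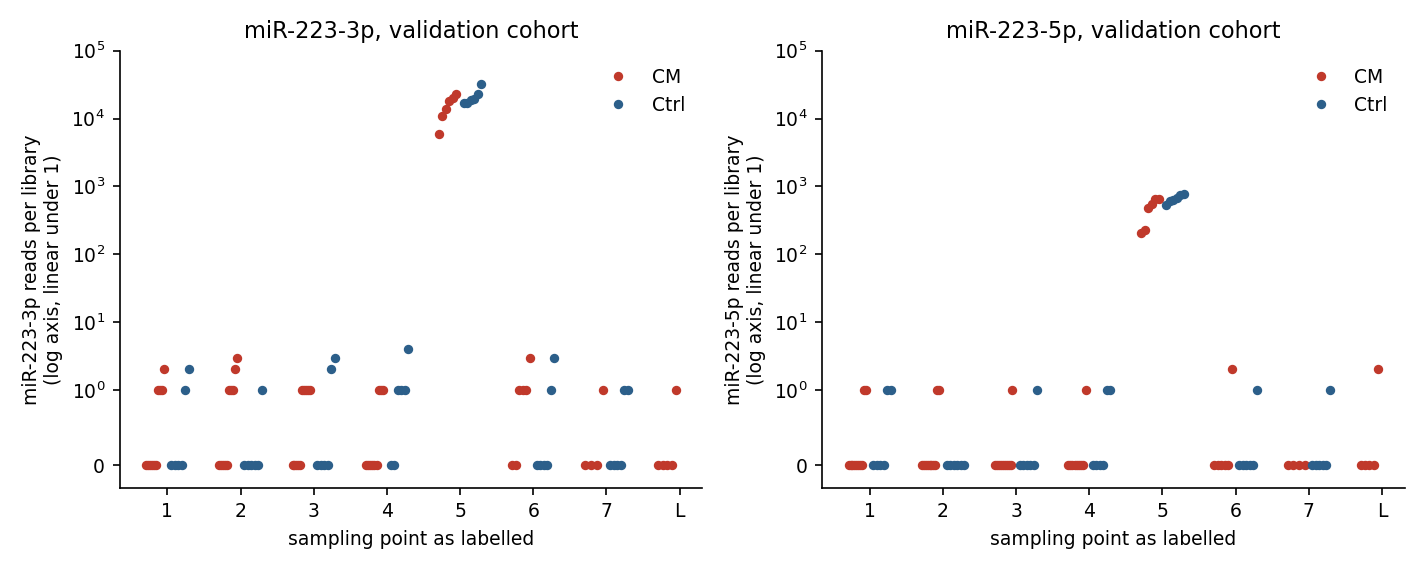
Whole reads of miR-223-3p and miR-223-5p in each validation library by sampling point, for CM (red) and Ctrl (blue) mice. Point 5 holds 5928 to 32343 reads of miR-223-3p, and the other points hold at most 4.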

How the data were processed

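Small RNA libraries from PBMC were sequenced for 231 samples. Per the labels and the study's methods, the authors trimmed adapters with cutadapt, aligned reads with Bowtie and counted mature miRNAs. The methods name mm9, whereas the submitters' processing notes name GRCm38. Both tables give the members by name. Training counts were deposited unscaled, as whole numbers. The deposited CPM was TMM-scaled in edgeR by the authors, and its columns summed to 505180 to 1582938 (training) and 95870 to 16258752 (validation), so it was treated as a scaled signal. Its steps gave whole reads for 100.0% of values within 0.01.

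Counts were tested with edgeR 4.0.16 (R 4.3.3; quasi-likelihood F test, TMM, filterByExpr, Benjamini-Hochberg over all miRNAs), by month for CM against Ctrl, and for last CM or Ctrl month 6 against month 0. Validation CPM was tested with limma 3.58.1 on log2(CPM + 1). DESeq2 1.42.0 was an alternative. Levels, changes, means, slopes and ratios of miR-223 were compared by exact two-sided permutation over mice (numpy 2.4.6). Adjustment was over the months or tests of a member, 10 for levels, 6 for changes, 4 for means and slopes and 8 for ratios. Scripts were tested on simulated data. Samples were grouped as CM or Ctrl by the treatment label (validation) or the sample title (training), and by mouse. The mouse pairs libraries across months since by the labels they come from the same animal, with the doubt for mice 3334 and 3335 given above. Deviations of paired libraries from their group means correlated at -0.17 to 0.12 (CM) and -0.21 to 0.14 (Ctrl) over 331 miRNAs. Training totals of 1792809 to 7958411 counts leave counting error small beside the spread between mice for both strands. Besides the members, the text names the 5 miRNAs most and the 3 least correlated with miR-223-3p and up to 3 called members of each marker list. The members and lists were chosen with earlier results of these data known.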

Additional observations from a re-analysis of the deposited data

Results flagged for a closer look

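CM mouse 3334 stood apart from the other 6 CM mice before induction. It held 39421 CPM of miR-223-3p, where the next highest CM mouse held 10865 CPM, and 569 CPM of miR-223-5p, where the next highest held 200.04 CPM. At month 4 its ratio of 3p to 5p, 23.5, was the lowest of the CM mice, and the next lowest was 30.6. These 3 values were found among 60 groups of 4 to 10 libraries, and chance marks about 1 in 20 such groups.

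The change from month 0 to month 2 differed between CM and Ctrl mice in both strands, by 1.36 for miR-223-3p (6 of 6 CM and 1 of 7 Ctrl mice above 0) and by 0.70 for miR-223-5p (6 of 6 and 4 of 7), on the log2(CPM + 1) scale. Their adjusted p were 0.0105 and 0.028 by exact permutation over mice. CM mouse 3334 had no month 2 library, so leaving out mice 3334 and 3335 removed Ctrl mouse 3335 alone. The differences were then 1.53 and 0.75. The CM mice that entered started lower than Ctrl in miR-223-3p at month 0. G number and group can hardly be told apart at month 2.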

How the results depend on the processing

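All values here are log2 differences, CM minus Ctrl unless said otherwise. Apart from omissions of a single mouse, 370 recomputed miR-223 results kept their direction and side of the threshold, 26 changed sign, 10 lost and 8 gained a call, and 2 without a test moved by more than the spread between mice. Where no cause is given it was not tested. The call for miR-223-3p at month 3 was lost with the G number as a covariate (0.45, adjusted p = 0.687), in one fit over all training libraries (0.67, adjusted p = 0.202) and in that fit with the G number (0.50, adjusted p = 0.461). Within the shared G number the month 3 level difference was 0.23, and that of miR-223-5p at month 6 was 0.44. The month 6 value includes mouse 3334. At month 6 the G numbers of mice 3334 and 3335 break the run of the serial numbers that end the titles, so this value is in doubt.

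With the mouse as a replicate block, the last CM libraries against month 0 gave -1.24 for miR-223-3p (adjusted p = 0.0595) and Ctrl month 6 against month 0 gave -0.41 for miR-223-5p (adjusted p = 0.105), and no other miR-223 call changed. The latter call was also lost with limma on the deposited CPM (-0.38), with no filter on low counts (-0.40), on recovered reads (-0.34), with raw library sizes (-0.44) and without mice 3334 and 3335 (-0.42).

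Without mice 3334 and 3335, miR-223-3p passed in level at month 0 (-0.50) and month 2 (1.03) and in change at month 3 (1.22). miR-223-5p then passed in level at month 2 (0.41), and the ratio at month 4 (0.47) and in the mean over months 1 to 6 (0.32). At month 2 this left out Ctrl mouse 3335 alone, as mouse 3334 had no library there. Without both mice the sign turned for changes of miR-223-3p at months 5 and 6 (0.13, 0.41) and of miR-223-5p (0.039, 0.17). It also turned for edgeR folds at month 0 (-0.54 for miR-223-3p, -0.44 for miR-223-5p). With raw library totals the month 2 levels passed for both strands (0.88 and 0.36), and miR-223-3p at month 7 turned to -0.018.

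Other changes of sign were in differences that did not pass. With the deposited CPM, level differences of miR-223-3p at months 4 and 5 were 0.072 and 0.0045, of miR-223-5p at month 6 0.0057, and of the ratio at month 0 0.0065. With limma on that table, month 0 gave -0.16 for both strands, months 4 and 5 gave 0.072 and 0.0045 for miR-223-3p and month 6 gave 0.0057 for miR-223-5p. miR-223-5p at month 0 was -0.0010 with no filter, -0.0094 on recovered reads and -0.045 in one fit with the G number. At month 6 it was 0.14 in that fit, 0.0325 in one fit without it, 0.29 with the G number as a covariate, 0.014 with DESeq2 and 0.057 with raw library sizes. miR-223-3p at month 6 was -0.072 with month 6.5 libraries in place of month 6, and its slope difference over all months was -0.039.

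With each mouse left out in turn, 717 results kept direction and call, 42 turned, 28 lost and 7 gained a call. Calls that were lost or gained lay in levels at month 2 (0.56 to 1.03 for miR-223-3p, 0.27 to 0.42 for miR-223-5p), miR-223-3p at month 3 (level 0.57 to 0.77, change 0.65 to 1.19), miR-223-5p change at month 2 (0.54 to 0.80), the ratio at month 3 (0.47 to 0.60) and over months 1 to 6 (0.18 to 0.29), and miR-223-5p over time (-0.96 to -0.23 in CM, -0.52 to -0.29 in Ctrl). Results whose sign turned were miR-223-3p levels at months 0 (-0.465 to 0.019), 4 (-0.19 to 0.15), 5 (-0.21 to 0.22), 6 (-0.12 to 0.27) and 7 (-0.11 to 0.30), its changes at months 4 (-0.094 to 0.45), 5 (-0.48 to 0.23) and 6 (-0.41 to 0.35), miR-223-5p levels at months 0 (-0.33 to 0.036) and 6 (-0.16 to 0.17), its changes at months 1 (-0.38 to 0.054), 5 (-0.48 to 0.11) and 6 (-0.31 to 0.17), its mean over months 1 to 6 (-0.138 to 0.015) and the ratio at month 0 (-0.134 to 0.076). Among edgeR folds these were miR-223-3p at months 0 (-0.47 to 0.34), 4 (-0.30 to 0.077) and 6 (-0.12 to 0.23), and miR-223-5p at months 0 (-0.39 to 0.19) and 6 (-0.14 to 0.10).

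Counts of miRNAs called moved most with the G number as a covariate, from 130 to 10 at month 1, 65 to 0 at month 2 and 100 to 6 at month 3. Over all alternatives they ran from 0 to 4 at month 0, 10 to 156 at month 1, 6 to 144 at month 3, 0 to 70 at month 4, 0 to 53 at month 5 (37 without Ctrl mouse 3335), 0 to 19 at month 6, 130 to 234 for last CM libraries and 51 to 120 for Ctrl month 6 (51 without mouse 3339 and 61 without mouse 3350). At month 2 the share called rose from 13.5% to 26.6% without Ctrl mouse 3349. Recovered reads, ranks in place of log2 values and omissions of a validation mouse were chosen after seeing the data.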
